A study of Homo sapiens with 8 samples.

Results

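Of the GATA family, the 5 genes GATA2, GATA3, GATA4, GATA5 and GATA6 were followed in maps of H3K27me3 from human B-cell lymphoma cells. GATA1 was not among them. The loci were set by position, as the hg19 span of each gene, given to 1 kb, with 10 kb added on each side. The members were chosen with earlier results of these data known. These 5 loci held 16 of 47432 H3K27me3 islands in LY19Y646F and 14 of 58144 in LY19WT. LY19Y646F was an immortalised lymphoma B-cell line with constitutive expression of EZH2-Y646F from a CMV promoter, and LY19WT was the line with wild-type EZH2. Both were untreated, were used at passages 10 to 15, and gave 3 ChIP libraries and 1 input library each. The labels do not say whether a line was 1 clone. The submitters pooled the 3 ChIP libraries of each line ahead of the island calls, so each locus has 1 value per line, and the spread among replicates is unknown and no difference was tested. The files hold the mark and no RNA, so the B-cell identity of the lines could not be checked against expressed markers.

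H3K27me3 is the repressive histone mark written by EZH2, the methyltransferase of Polycomb repressive complex 2, and Y646F, in the SET domain of EZH2, is a recurrent change of germinal centre lymphomas. GATA proteins are zinc finger transcription factors that bind the DNA letters GATA and direct cell fate. GATA2 and GATA3 act in blood, GATA2 in stem and progenitor cells and GATA3 in T cells, while GATA4, GATA5 and GATA6 act in heart and endoderm. Their genes are developmental loci of the kind that Polycomb often covers in cells of another lineage.

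The promoters are shown because the 5′ ends of GATA3 and GATA6 lay outside islands in both lines and that of GATA2 in LY19Y646F. Each sequence is the 250 bases before a RefSeq start site (GRCh38.p14), with CG pairs in capitals. Of 2 entries for GATA2 and 6 for GATA3, the one shown is that whose distance from the 3′ end of the gene was closest to the length of the hg19 span.
GATA2, chr3:128493202-128493451, minus strand: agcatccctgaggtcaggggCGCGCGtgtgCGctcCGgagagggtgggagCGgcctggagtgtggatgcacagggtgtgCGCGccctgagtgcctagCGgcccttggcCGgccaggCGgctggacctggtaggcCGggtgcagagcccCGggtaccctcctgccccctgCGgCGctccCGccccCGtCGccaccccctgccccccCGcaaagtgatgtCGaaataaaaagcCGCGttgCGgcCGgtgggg
GATA3, chr10:8054438-8054687, plus strand: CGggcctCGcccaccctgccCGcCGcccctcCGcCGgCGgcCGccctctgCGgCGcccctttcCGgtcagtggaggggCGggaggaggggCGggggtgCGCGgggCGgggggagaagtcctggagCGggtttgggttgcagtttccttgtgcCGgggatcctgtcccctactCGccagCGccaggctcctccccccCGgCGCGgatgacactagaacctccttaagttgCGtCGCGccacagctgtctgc
GATA6, chr18:22169339-22169588, plus strand: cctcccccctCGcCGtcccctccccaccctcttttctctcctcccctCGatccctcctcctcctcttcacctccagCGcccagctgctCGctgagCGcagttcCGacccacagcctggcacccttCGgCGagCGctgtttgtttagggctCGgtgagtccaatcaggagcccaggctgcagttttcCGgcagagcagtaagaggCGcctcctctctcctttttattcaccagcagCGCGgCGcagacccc

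These stretches held 24 CG pairs for GATA2, 26 for GATA3 and 16 for GATA6, against a median of 11 over 35116 promoter entries. At least as many CG pairs were found in 23.7%, 19.6% and 41.0% of all entries. The letters GATAA, or TTATC on the other strand, were in none of the 3 stretches and in 20.4% of all entries. Names of 3 of the 5 genes matched, the others being GATA4 and GATA5. All positions below are 1-based hg19 positions.

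H3K27me3 islands lay over 4 of the 5 GATA loci in LY19Y646F, against 36.4% of 50 kb windows of the autosomes, and over all 5 in LY19WT, against 42.9% of windows. An island here is a stretch that SICER built from enriched 200 bp windows, and the covered share is the part of a locus that lies in islands. Covered shares reached at least 50% at 4 loci in LY19Y646F, against 11.4% of windows, and at 5 loci in LY19WT, against 18.9% of windows. The 4 loci other than GATA6 passed this limit in both lines, which 5.59% of windows did, or 29.5% of the windows that passed it in LY19WT. Over all 263 kb of the 5 loci, islands covered 61.3% in LY19Y646F and 79.4% in LY19WT. Without GATA6 the shares were 76.8% in LY19Y646F and 80.2% in LY19WT. The mean covered share of the 50 kb windows was 13.7% in LY19Y646F and 19.8% in LY19WT, so cover was lower in LY19Y646F there too. With 10 kb added to the spans the genes showed 3 patterns, namely GATA2, GATA3 and GATA4 with somewhat less cover in LY19Y646F, GATA5 with more, and GATA6 with none. With 20 kb added, GATA2 and GATA4 were more covered in LY19Y646F, so their place in the first pattern depends on the extension.

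**Figure D1:**
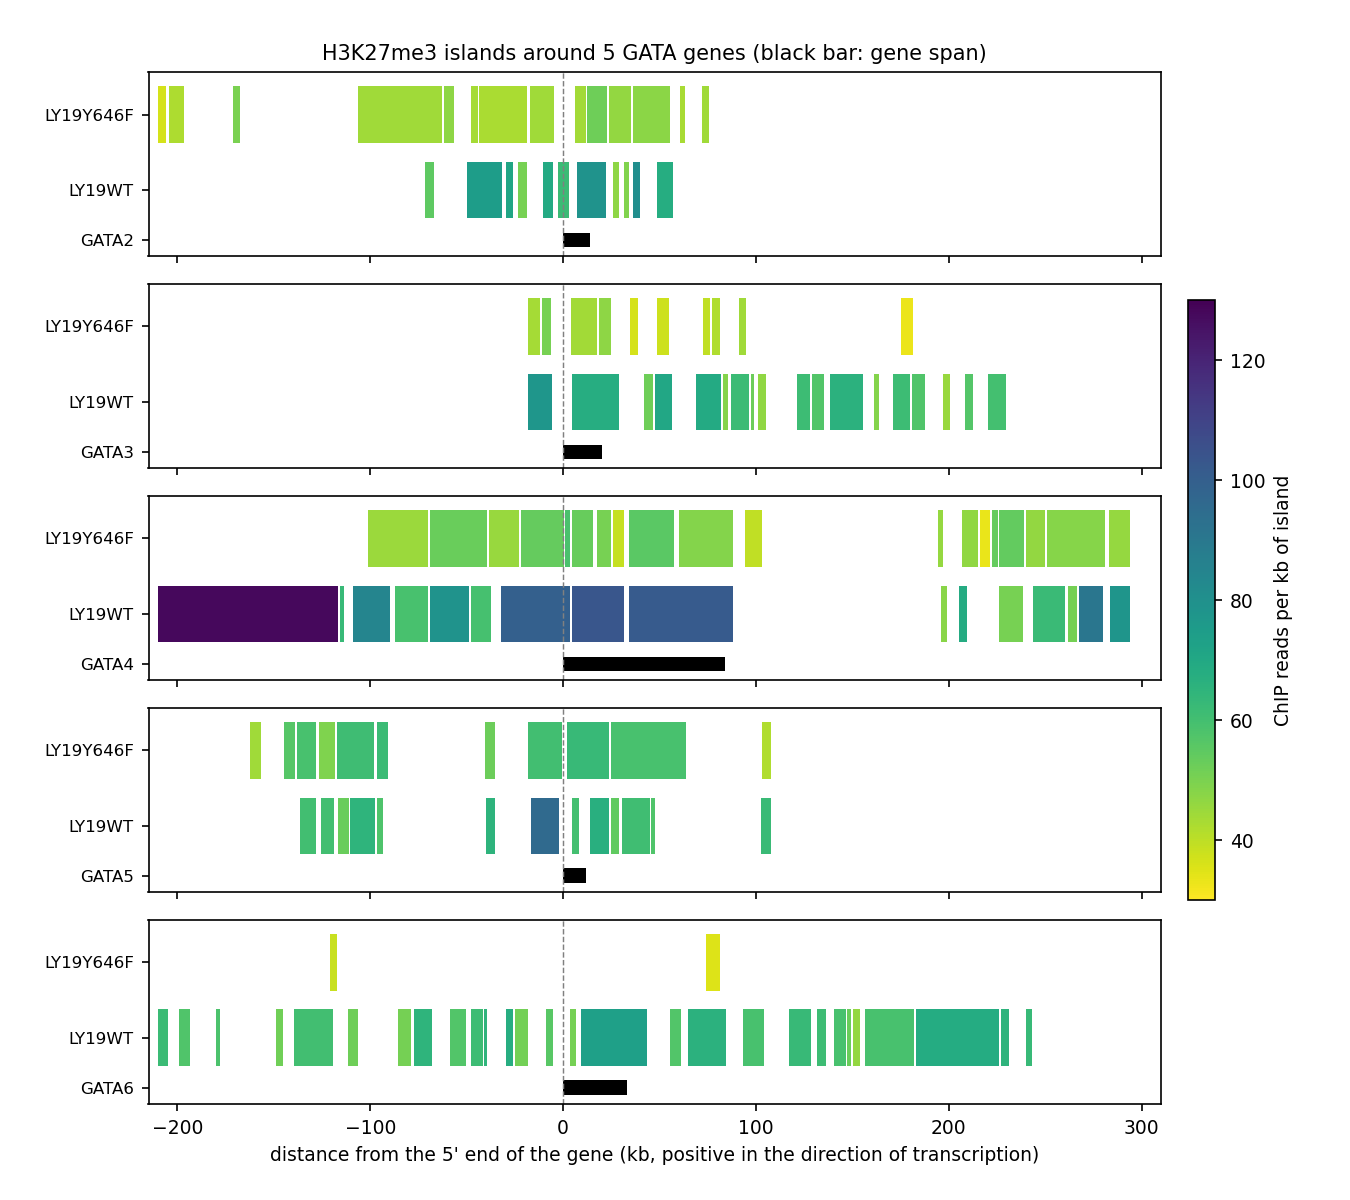
H3K27me3 islands around the 5 GATA genes by distance from the 5′ end of the gene (kb), with LY19Y646F above LY19WT in each panel and colour giving ChIP reads per kb of island. Islands of both lines sit over GATA2, GATA3, GATA4 and GATA5, and the GATA6 panel has 2 islands in LY19Y646F, neither of them over the gene, and 28 in LY19WT.

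GATA2, a factor of blood stem and progenitor cells, lay in islands over 61.8% of its locus in LY19Y646F and over 74.1% in LY19WT. The locus ran from 128188001 to 128222000 on chromosome 3. LY19Y646F had 4 islands there and LY19WT had 3, and 18.6 kb was covered in both lines, which was 88.6% of the LY19Y646F length and 73.8% of the LY19WT length. The lines differed at the 5′ end of the gene, near 128212000, since GATA2 lies on the minus strand. LY19Y646F left an uncovered stretch of 11.4 kb, from 128205601 to 128217000, around it. LY19WT had an island of 5.8 kb, from 128208801 to 128214600, at this end. Within the gene span alone the shares were 48.6% in LY19Y646F and 71.4% in LY19WT, so the gene itself was just under 50% in LY19Y646F. With spans extended by 20 kb the order turned, to 73.7% in LY19Y646F and 61.1% in LY19WT.

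The densest island of the GATA2 locus by ChIP reads per kb lay over the 3′ part of the gene and past its end in both lines. In LY19Y646F it ran from 128189201 to 128199600, with 541 ChIP reads and 67 input reads, or 52.0 and 6.44 reads per kb. In LY19WT it ran from 128190001 to 128204800, with 1165 ChIP reads and 122 input reads, or 78.7 and 8.24 reads per kb. Its fold of ChIP over input, which is the authors' value here and for each island below, was 3.08 in LY19Y646F and 3.11 in LY19WT. At the upstream edge the LY19Y646F island from 128217001 to 128229400 stood lower, with a fold of 1.61 and 10.5 input reads per kb, and that of LY19WT from 128217401 to 128222600 had a fold of 4.20 and 5.38 input reads per kb.

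Around GATA2 the mark spread further in LY19Y646F. Islands covered 49.7% of the 200 kb upstream of the locus in LY19Y646F and 15.8% in LY19WT. The longest upstream island of LY19Y646F ran from 128275001 to 128318600 with 44.4 ChIP reads per kb. The longest of LY19WT measured 18.2 kb with 74.7 ChIP reads per kb. In the whole lists, the lowest 5% of islands by density held at most 35.4 ChIP reads per kb in LY19Y646F and 45.6 in LY19WT. Downstream the shares were 18.3% in LY19Y646F and 9% in LY19WT. The nearest protein-coding neighbours in the RefSeq gene order (GRCh38.p14) are DNAJB8, a heat shock protein of testis, on the 3′ side and RPN1, a subunit of the oligosaccharyltransferase complex, on the 5′ side.

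GATA3, the factor that directs T-helper cell fate, had islands on both sides of its 5′ end in each line, with more cover in LY19WT. Its locus ran from 8087001 to 8127000 on chromosome 10, with 57.5% of it inside islands in LY19Y646F and 73% in LY19WT. Of the 23 kb covered in LY19Y646F, 99.1% was also covered in LY19WT, and that shared part was 78.1% of the LY19WT length. The lines differed most in the 10 kb downstream of the gene, covered to 46% in LY19Y646F and 92% in LY19WT, while the shares of the gene span were 74% in LY19Y646F and 78% in LY19WT. The 5′ end, near 8097000, lay in an uncovered stretch in both lines. This stretch ran from 8090601 to 8101200 in LY19Y646F, 10.6 kb, and from 8091401 to 8101400 in LY19WT, 10 kb. The promoter printed above for GATA3 belongs to this end of the gene.

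Past this stretch, the GATA3 gene body was covered from 4.2 kb after its 5′ end in LY19Y646F and from 4.4 kb in LY19WT. In LY19Y646F the first body island, from 8101201 to 8114600, had 43.7 ChIP and 8.36 input reads per kb and a fold of 2.0. The next, from 8115601 to 8121600, had 47.2 and 9.5 reads per kb and a fold of 1.90. In LY19WT 1 island ran from 8101401 to 8126200, with 67.7 ChIP and 7.14 input reads per kb and a fold of 3.09. Upstream of the gene, the island from 8086001 to 8090600 had the highest fold of this locus in LY19Y646F, 3.18, and that of LY19WT from 8078801 to 8091400 had 3.50.

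The flanks of GATA3 were lopsided. Islands covered 3.5% of the 200 kb upstream in LY19Y646F and 4.1% in LY19WT. Downstream they covered 14.1% in LY19Y646F and 54.9% in LY19WT, in 6 LY19Y646F and 16 LY19WT islands. From 7887001 to 8078800, the whole far part of the upstream flank, neither line had an island. The nearest coding neighbour on that side is TAF3, a subunit of the general transcription factor TFIID, and the nearest on the other side is CELF2, an RNA-binding protein.

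GATA4, a factor of heart and endoderm, had the broadest domain of the 5 genes in both lines. Its locus ran from 11524001 to 11628000 on chromosome 8, with 84.6% of it inside islands in LY19Y646F and 91.0% in LY19WT. All of the 88 kb covered in LY19Y646F was covered in LY19WT as well, which was 93.0% of the LY19WT length. LY19Y646F had 7 islands of 2.8 to 28 kb, and LY19WT had 3 islands of 26.8 to 54 kb. When islands were joined across gaps of up to 5 kb, the domain measured 189.6 kb in LY19Y646F and 400 kb in LY19WT. So joined, it ended at 11622200 in both lines, 4.2 kb past the end of the gene. A further LY19Y646F island, from 94.2 to 103 kb past the 5′ end of the gene, lay just beyond the limit for joining. LY19WT had no island there, so the shared end depends on that limit. Joined islands covered 94.4% of the locus in each line, and with spans extended by 20 kb the shares were 86.1% in LY19Y646F and 84.4% in LY19WT, the other order.

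The GATA4 islands held fewer raw ChIP reads per kb in LY19Y646F, from pools whose total depths are unknown. In LY19Y646F they held from 38.9 to 58.6 ChIP reads per kb, with 51.7 over all 7, and in LY19WT from 99.8 to 103.1, with 101.5 over all 3. Scaled by total ChIP reads in islands the direction turned, with a log2 ratio of LY19Y646F to LY19WT of 0.14. Over all GATA4 islands of a line, the input libraries held 8.79 reads per kb in LY19Y646F and 8.79 in LY19WT. The 3 LY19WT islands ranked at or above the percentile 98.96 of their list by ChIP density. Of the 50 kb windows covered by at least 50% in both lines, 6.16% had as high a density in LY19WT as GATA4.

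Some edges of the GATA4 islands lay at the same place in both lines. Of the 14 edges in LY19Y646F, 5 lay within 200 bp of the same kind of edge in LY19WT, as did 5 of 6 edges counted from LY19WT. Over the 5 loci it was 7 of 32 edges in LY19Y646F, against 5.13% of edges on all autosomes, and 8 of 28 in LY19WT, against 4.2%. The autosomal shares also count islands where the other line has none, so the sets are unlike. Only 24.5% of 50 kb windows held islands of both lines. At GATA2 no edge matched, and at GATA6 none could match, since LY19Y646F had no island there.

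The GATA4 domain opened to the upstream side in LY19WT. Islands covered 44.2% of the upstream flank in LY19Y646F and 92.6% in LY19WT. The longest LY19WT island there ran from 11315201 to 11417400, with 127.8 ChIP reads per kb and a fold of 4.82. In LY19Y646F the stretch from 11324001 to 11432600 held no island. Downstream, the shares were 45.7% in LY19Y646F and 31.9% in LY19WT, after a stretch from 11637001 to 11728600 with no island in either line. In the RefSeq gene order, BLK, a Src family kinase of B cells, and FAM167A precede GATA4, and the DNA glycosylase gene NEIL2, the squalene synthase gene FDFT1 and the cathepsin B gene CTSB follow it.

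GATA5, a factor of endoderm and heart, was the 1 member with more cover in LY19Y646F when 10 kb was added to the spans. Its locus ran from 61029001 to 61061000 on chromosome 20, with 91.25% of it inside islands in LY19Y646F and 60.6% in LY19WT, a difference of 30.6 percentage points. LY19Y646F was the more covered line in 22.2% of all 50 kb windows. That total also counts windows with no island in either line, where neither line could be the more covered. Only 36.4% of windows held a LY19Y646F island, and 24.5% held islands of both lines, so the 22.2% is no like background for GATA5. All of the 19.4 kb covered in LY19WT was covered in LY19Y646F, and it made up 66.4% of the LY19Y646F length. The difference lay mostly in the gene span, covered to 83.3% in LY19Y646F and 28.3% in LY19WT.

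Over GATA5, LY19Y646F had 2 wide islands on either side of the 5′ end, near 61051000, since the gene lies on the minus strand. The first ran from 61027201 to 61049000, with 62.8 ChIP and 8.26 input reads per kb and a fold of 2.90. The second ran from 61051801 to 61069000, with 60.3 and 7.33 reads per kb and a fold of 3.14. By ChIP density they stood at the percentiles 99.5 and 99.3 of their list. LY19WT had 3 islands, which held 66.9, 59.7 and 95.9 ChIP reads per kb at folds of 2.81, 2.45 and 3.19. The middle one, from 61043001 to 61046400, was the only LY19WT island within the gene span.

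The 5′ end of GATA5 lay in an uncovered stretch in both lines. It measured 2.8 kb in LY19Y646F and 6.6 kb in LY19WT. In the flanks, LY19Y646F was again the more covered line, with 33.9% against 24.1% in LY19WT upstream and 23% against 13.8% in LY19WT downstream. The longest island next to the locus, from 60987201 to 61026400 in LY19Y646F, had a fold of 3.24. Coding neighbours are RBBP8NL on the 3′ side and SLCO4A1, an organic anion transporter gene, on the 5′ side, and the muscle microRNAs MIR1-1 and MIR133A2 lie in between.

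GATA6, a factor of endoderm and heart, carried no island in LY19Y646F and a broad one in LY19WT. Its locus ran from 19739001 to 19792000 on chromosome 18, with 0% of it inside islands in LY19Y646F and 76.2% in LY19WT. Of 50 kb windows covered by at least 50% in LY19WT, 34% held no LY19Y646F island, and 10.4% of all windows were covered by at least 50 percentage points less in LY19Y646F. The longest LY19WT island, from 19758001 to 19792600, had 2551 ChIP and 268 input reads, or 73.7 and 7.75 reads per kb, and a fold of 3.10. A weak one, from 19752801 to 19755600, had a fold of 1.37, at the percentile 1.66 of its list, and 12.1 input reads per kb.

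The absence of islands at GATA6 in LY19Y646F reached far past the gene. From 19631801 to 19823000, 191.2 kb, LY19Y646F had no island, and islands covered 1.9% of its upstream flank and 3.6% of its downstream flank. In LY19WT these flanks were covered to 42% and 70.1%. In the stretch from 10 to 20 Mb of chromosome 18, with GATA6 near its end, LY19Y646F had 28 islands and LY19WT had 156. Median input over those islands, relative to all autosomal islands of the line, came to 0.714 in LY19Y646F and 0.991 in LY19WT. Within 5 Mb on each side of the gene, LY19Y646F had 13 islands with a relative input of 0.838, and LY19WT had 195 islands with 0.964. Fewer DNA copies, a lower level of the mark and reads under the calling limit cannot be told apart here, since reads outside islands were not analysed. The lowest 5% of LY19Y646F islands by density held at most 35.4 ChIP reads per kb.

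**Figure D2:**
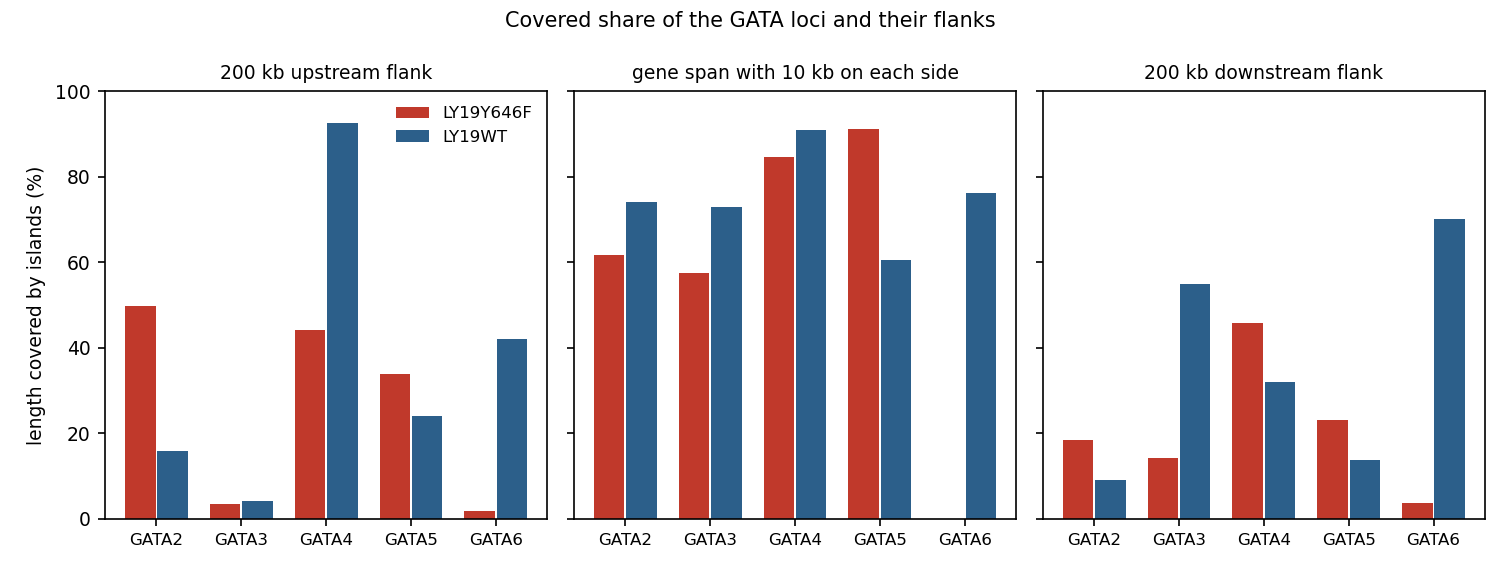
Share of length covered by H3K27me3 islands (%) in LY19Y646F (left bar of each pair) and LY19WT (right bar), for the 200 kb upstream flank, the locus and the 200 kb downstream flank of each gene. The loci are covered to 57.5% or more in both lines except GATA6 at 0% in LY19Y646F, and only GATA5 has a higher bar in LY19Y646F at the locus itself.

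Input near the other 4 loci was closer to the autosomal median. In the fixed 10 Mb bin that holds each locus, which for GATA5 is the last of chromosome 20 and ends early, relative input was between 0.965 and 1.01 in LY19Y646F and between 0.978 and 1.02 in LY19WT. Within 5 Mb on each side of the genes it was between 1 and 1.08 in LY19Y646F and between 0.985 and 1.01 in LY19WT. The value of 1.08 belonged to GATA5, which had 0.988 in LY19WT. Islands covered 13.0% of the 10 Mb bin of GATA5 in LY19Y646F and 5.53% in LY19WT, counted over the full 10 Mb. Whether input bears on the cover at GATA5 was not tested. Over the islands of locus and flanks, relative input ran from 0.849 at GATA2 to 0.972 at GATA4 in LY19Y646F, and from 0.930 at GATA3 to 1.06 at GATA2 in LY19WT. At GATA6 it was 0.654 over 2 islands in LY19Y646F and 0.960 over 28 in LY19WT.

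The 5′ ends of GATA2, GATA3 and GATA5 in LY19Y646F, and of GATA3, GATA5 and GATA6 in LY19WT, lay outside the islands around them. Uncovered 5′ ends numbered 4 of 5 in LY19Y646F, where GATA6 had no island at all, and 3 of 5 in LY19WT. Within 50 kb windows covered by at least 50%, 28% of positions in LY19Y646F and 23.8% in LY19WT were uncovered. GATA6 in LY19Y646F, covered to 0%, is unlike these windows, so the count of 4 of 5 has no like background. With 5 genes, and ends known to 1 kb, these counts of uncovered ends are a description. Each 5′ end is the outer edge of the gene span, and other start sites of a gene were not examined. GATA3, GATA5 and GATA6 were uncovered in both lines. For GATA5 in LY19Y646F the nearest island edge lay 0.8 kb from the end, within the 1 kb to which ends are known, so this call could turn. At GATA6 the LY19WT stretch ran from 19743601 to 19752800, 9.2 kb, and the promoter printed above for GATA6 belongs to this end. The 5′ end of the GATA4 span, near 11534000, was covered in both lines, but in LY19Y646F its island ended 0.2 kb past it, also within that 1 kb.

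**Figure D3:**
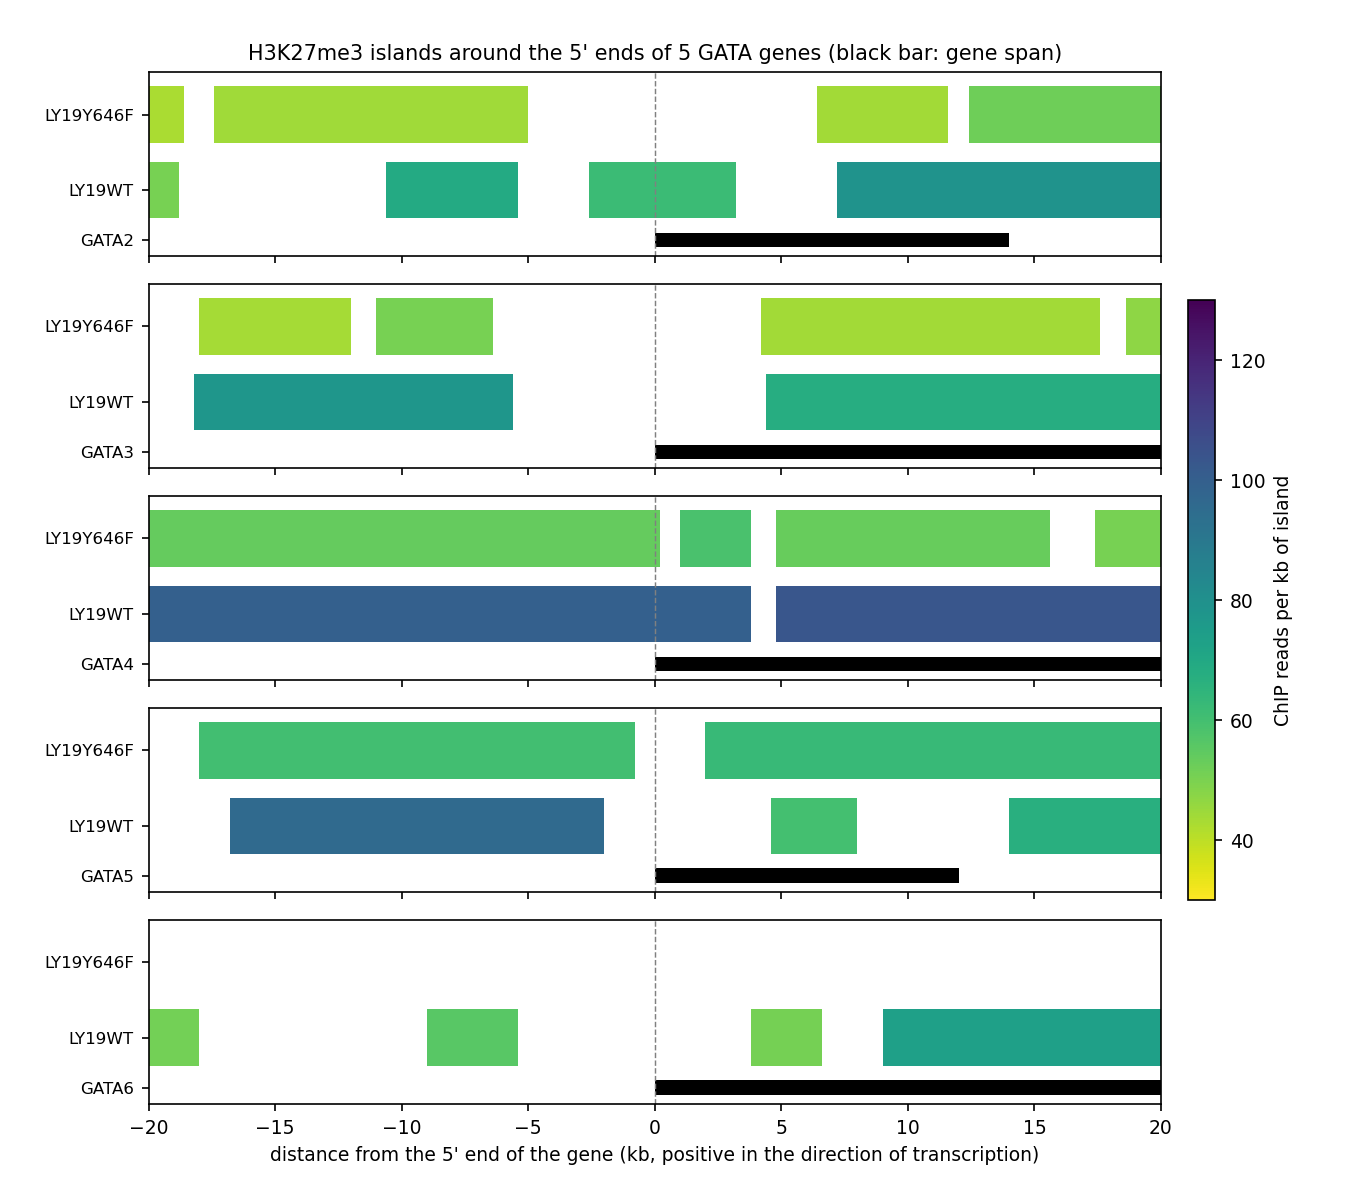
Islands within 20 kb of the 5′ end of each GATA gene (dashed line), with LY19Y646F above LY19WT and colour giving ChIP reads per kb. At GATA3 the stretch without an island measures 10.6 kb in LY19Y646F and 10 kb in LY19WT, and at GATA2 an island of 5.8 kb crosses the line in LY19WT alone.

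ChIP over input of the called islands was lower in LY19Y646F at GATA2, GATA3 and GATA4. The direction turned for another measure, ChIP reads per kb scaled by total ChIP reads in islands, which leaves the input out. In ChIP over input the lines differed at GATA5 by less than the counting error. This ratio is the ChIP reads over the input reads of all islands of a locus, divided by the library ratio of the line. Islands were called separately in each line, so the ratios of the lines cover different stretches and are no measure of the locus as a whole. The islands summed to 39.8 kb in LY19Y646F and 25.8 kb in LY19WT at GATA2, to 24 kb in LY19Y646F and 37.4 kb in LY19WT at GATA3, to 99.8 kb in LY19Y646F and 116.8 kb in LY19WT at GATA4, and to 39 kb in LY19Y646F and 28 kb in LY19WT at GATA5. Its 95% interval covers counting error only. GATA2 stood at 2.24 (1.99 to 2.54) in LY19Y646F and 3.21 (2.76 to 3.75) in LY19WT. GATA3 stood at 2.14 (1.83 to 2.50) in LY19Y646F and 3.23 (2.85 to 3.67) in LY19WT. GATA4 stood at 2.25 (2.09 to 2.42) in LY19Y646F and 3.76 (3.52 to 4.01) in LY19WT. With 1 pooled list per line, these intervals say nothing of the spread between replicates.

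At GATA5 the ratios were 3.0 (2.66 to 3.39) in LY19Y646F and 2.99 (2.62 to 3.42) in LY19WT, and the log2 ratio of the lines was 0.01 with an interval from -0.25 to 0.26. GATA6 in LY19WT had 2.87 (2.56 to 3.23). Within LY19Y646F, GATA5 stood above GATA2, GATA3 and GATA4, whose intervals overlap each other. Within LY19WT, the interval of GATA4 overlaps those of GATA2 and GATA3 and lies above those of GATA5 and GATA6.

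The log2 ratios of LY19Y646F to LY19WT were -0.52 at GATA2, -0.60 at GATA3 and -0.74 at GATA4. Over 3119 windows of 50 kb that were covered by at least 50% in both lines, the same quantity had a median of -0.41 and quartiles of -0.62 and -0.22, and 91.7% of windows were lower in LY19Y646F. GATA2 and GATA3 lay between these quartiles, GATA4 below them and GATA5 above them. The GATA2 value was -0.13 when islands that touch the gene span alone were counted. For ChIP reads per kb scaled by total ChIP reads in islands, without input, the log2 ratios were 0.47, 0.48 and 0.14 at GATA2, GATA3 and GATA4. GATA5 had 0.71, so GATA4 was the lowest and GATA5 the highest of the 4 by this measure too.

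**Figure D4:**
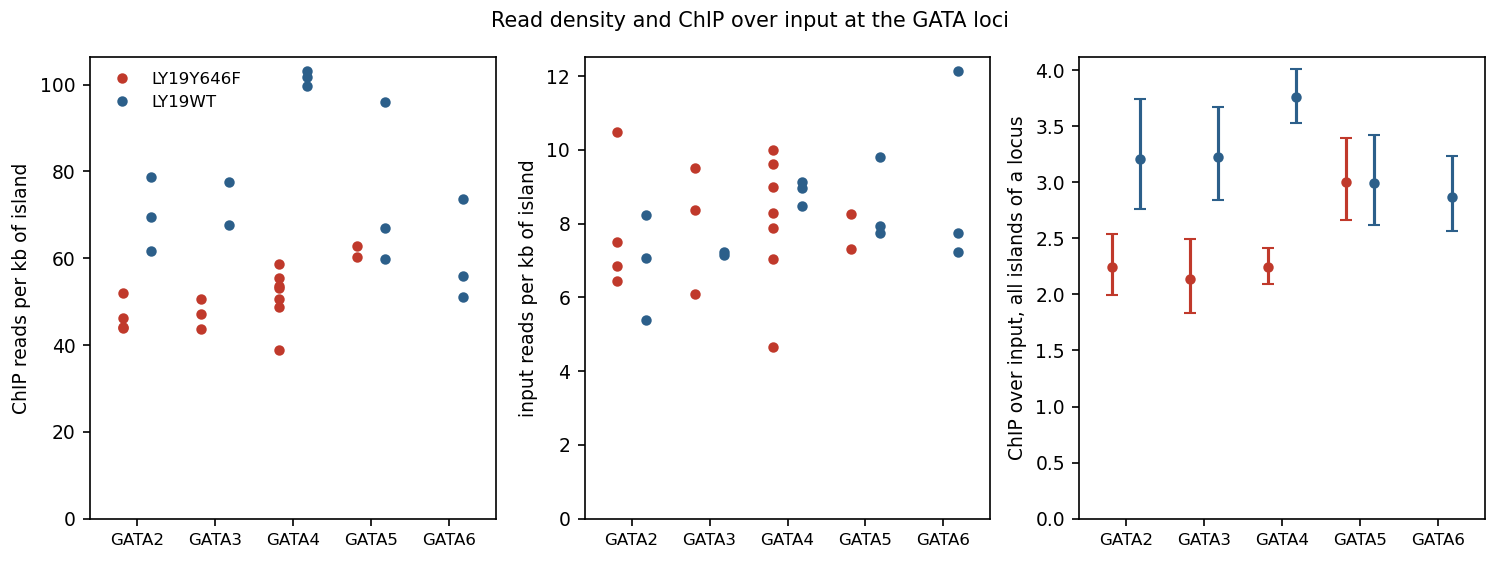
ChIP reads per kb (left) and input reads per kb (middle) of each island at the GATA loci, and ChIP over input of all islands of a locus (right, bars are 95% counting intervals), with LY19Y646F left of LY19WT for each gene. ChIP density of GATA4 islands spans 38.9 to 58.6 in LY19Y646F and 99.8 to 103.1 in LY19WT. Their input density spans 4.64 to 10 in LY19Y646F and 8.48 to 9.14 in LY19WT, and is 8.79 over all GATA4 islands in both lines. The ratios of GATA5 are 3.0 in LY19Y646F and 2.99 in LY19WT. LY19Y646F is lower in these ratios at GATA2, GATA3 and GATA4, but higher in ChIP reads per kb scaled by total ChIP reads in islands, which leaves the input out.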

How the data were processed

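H3K27me3 ChIP-seq was analysed for LY19Y646F and LY19WT, with 3 ChIP libraries and 1 input each. The submitters' processing notes name build hg19, SICER and bedtools (no version in the sources used here), Bowtie2 2.2.9 and SAMtools 1.3.1. SICER islands were called at an FDR of 0.001 for pooled replicates with the input as control, per the labels. The deposited counts are raw ChIP and input reads inside each island, per the file headers. The deposited p-value and FDR of an island rise and fall with depth and DNA copies too. The deposited fold is a linear ratio, ChIP over input reads divided by 1 constant per list, 2.62 in LY19Y646F and 3.07 in LY19WT, read as the ratio of library sizes. Total depths are unknown, and islands held 17410034 ChIP and 3527109 input reads in LY19Y646F, and 37556030 ChIP and 4949411 input reads in LY19WT.

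Gene spans came from the rule that names the members, and all 5 members are named. Strands of GATA2, GATA3 and GATA6 came from the RefSeq promoter table, and those of GATA4 and GATA5 are textbook knowledge. Coverage was counted in 200 bp windows. Background windows of 50 kb tiled the 22 autosomes (55812 windows). Relative input is the median input per kb of islands in a fixed 10 Mb bin, or within 5 Mb on each side of the gene (added after seeing the data), over the autosomal median, 8.42 in LY19Y646F and 8.41 in LY19WT. Intervals are exact (Clopper-Pearson) for ratios within a line and normal on the log scale between lines. Reads without molecular identifiers are not independent molecules. Coverage steps were tested on simulated lists. Steps ran in Python 3.11.15 with scipy 1.17.1, pandas 2.3.3 and numpy 2.4.6. No gene annotation of build hg19 was at hand, so partner and marker lists were not analysed here. Members, lists and alternatives were chosen with earlier results of these data known.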

Additional observations from a re-analysis of the deposited data

How the results depend on the processing

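Islands at the GATA loci hardly depended on the FDR limit. At 1e-05 and 1e-10, covered shares of the 5 loci were as reported in LY19Y646F and 78.3% in LY19WT. GATA6 held no LY19Y646F island under any alternative run, but none of these could have brought one in. Stricter limits only remove islands. The nearest LY19Y646F island began at 19823001, out of reach of joining across 5 kb and of spans extended by 20 kb. The share of all 5 loci, 61.3% in LY19Y646F and 79.4% in LY19WT, became 67.2% in LY19Y646F and 85.0% in LY19WT with islands joined across 5 kb, and 64.7% in LY19Y646F and 83.6% in LY19WT with no extension of the spans. It became 69.4% in LY19WT with spans extended by 20 kb, where GATA2 and GATA4 were more covered in LY19Y646F, and 75.7% when the LY19WT list was shortened by p-value until its length equalled that of the LY19Y646F list. Without GATA6, chosen after seeing the data, it was 76.8% in LY19Y646F. With no extension, 3 loci in LY19Y646F and 4 in LY19WT reached 50%. Flanks were covered to 23.8% in LY19Y646F and 35.8% in LY19WT, and to 25% in LY19Y646F and 39.7% in LY19WT with joined islands. Flanks of 100 kb gave 33.1% in LY19Y646F and 35.6% in LY19WT, and the FDR limit of 1e-10 gave 34.7% in LY19WT.

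The log2 ratio of LY19Y646F to LY19WT over GATA2 to GATA5 was -0.57. It was -0.80 scaled by input alone and -0.79 for raw reads per kb. For ChIP reads per kb scaled by total ChIP reads in islands, without input, it turned to 0.32. By that measure GATA2 turned to 0.47, GATA3 to 0.48 and GATA4 to 0.14. The total of ChIP reads in islands is summed over 383.6 Mb in LY19Y646F and 554.6 Mb in LY19WT. Of the values of single genes under the alternatives, 54 kept within their interval, 28 moved past it and 3 turned past it. The sign differed in 5, those 3 and GATA5 (0.01 as reported), at -0.22 scaled by input alone and -0.40 for raw reads per kb. The cause was not tested. No paired analysis was possible because the replicates of a line were merged before the islands were called, which also means that no replicate could be left out.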
